A study of Mus musculus with 6 samples.

Results

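Cytosolic ribosomal protein genes were examined by RNA-seq in LSK cells (Lin-Sca1+c-Kit+), the bone marrow fraction that holds hematopoietic stem cells and multipotent progenitors. The genes were chosen by a naming rule that uses no measured value, although earlier results of these data were known when it was set. They were the protein_coding rows called Rpl or Rps followed by a digit, together with Rpsa, Rplp0, Rplp1 and Rplp2, without the Rps6k kinases and without names containing -ps. This gave 86 of the 54532 rows in the deposited table, 52 with large (60S) subunit names and 34 with small (40S) subunit names. Of them, 83 had a mean of at least 1 FPKM (fragments per kilobase of gene and per 1e6 fragments) and were tested among 11552 genes in all. Rps19bp1, which encodes a binding partner of Rps19, and Rpl7l1, a relative of Rpl7 that acts in ribosome assembly, met the naming rule but are not structural ribosomal proteins.

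CTRL_LSK cells came from Myh9fl/fl;no cre mice and cKO_LSK cells from littermate Myh9fl/fl;Mx1-cre mice, 3 libraries each, all on the C57BL/6 strain. Every mouse, control or knockout, received poly I:C at 5 mg/kg every other day, and the cells were sorted at day 4 after the first injection. The labels give 2 doses and the study's methods 3. The methods put the injections at 5 to 6 weeks of age. Each preparation held 100000 sorted cells. Mx1-cre is switched on by interferon and is not limited to hematopoietic cells, and poly I:C itself induces interferon in both groups, so the comparison is between mice that differ by Cre. How many mice stood behind each library is not stated, so the p-values measure the spread between these 3 and 3 libraries, which may be partly technical.

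Each cytosolic ribosome is built from a small subunit, which reads the mRNA, and a large subunit, which joins amino acids. Their proteins are needed in matched amounts, and most of their mRNAs carry a 5′ terminal oligopyrimidine (TOP) tract, a C followed by a run of pyrimidines, through which mTORC1 and Larp1 set their translation. Blood formation is sensitive to these genes: loss of 1 copy of Rps19, Rpl5, Rpl11 and others causes Diamond-Blackfan anaemia, a failure of red cell production, and loss of 1 copy of RPS14 underlies the anaemia of the 5q- syndrome.

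The 6 libraries held 17571544 to 19894562 reads on genes, and log2 values correlated at 0.991 to 0.993 between libraries of a group and 0.974 to 0.977 between groups. Myh9 was measured at 23.0, 22.6 and 22.0 FPKM in CTRL_LSK and at 18.4, 19.96 and 17.7 FPKM in cKO_LSK, a log2 fold change of -0.26 ± 0.05 (SE, limma adjusted p = 0.00642). The row covers the whole gene and does not separate the deleted part. Of the defining LSK genes, Kit fell and Ly6a (Sca-1) was read at 93.2 to 96.7 FPKM in CTRL_LSK and 85.4 to 92.3 FPKM in cKO_LSK. Flt3, a receptor of multipotent progenitors, rose from 19.1–20.7 FPKM to 28.8–31.1 FPKM (0.58 ± 0.04, limma adjusted p = 0.000147), Ptprc (CD45) fell, and Cd34 did not pass the test. Genes listed for other cell types moved between the groups, beside 19.9% of all genes tested called higher and 20.6% lower. All 12 tested of 15 erythroid genes rose, and their summed level went from 607–611 FPKM to 1060–1099 FPKM, while the red cell genes Alas2, Slc4a1 and Hba-a2 stayed under 0.3 FPKM in every library. Car1 and Car2 carried most of that sum, with means going from 344 to 618 FPKM and from 133 to 231 FPKM. Of 9 tested neutrophil and monocyte genes 8 fell, and the summed level of that list of 10 went from 10800–10820 FPKM to 5975–6082 FPKM. Most of that sum lay on Mpo, Elane, Prtn3 and Ctsg, with means of 3331, 3096, 2008 and 1785 FPKM in CTRL_LSK. In cKO_LSK their means were 1953, 1346, 1046 and 1367 FPKM. S100a8 did not pass the test (means of 67.8 and 67.3 FPKM). The B and plasma cell list had 3 members higher and 2 lower of 6 tested (132–137 FPKM in CTRL_LSK, 154–159 FPKM in cKO_LSK, with Pax5 at 0 in the 3 CTRL_LSK libraries). The T and NK cell list had 3 higher and 1 lower of 4 tested (365–378 and 336–340 FPKM, with Cd3e at 0 in the 3 CTRL_LSK libraries and Cd8a at 0 in the 3 cKO_LSK libraries). Its sum was carried by Nkg7, which fell from 350–359 FPKM to 276–282 FPKM, whereas Ccl5 rose from 8.47–11.7 FPKM to 34.4–36.7 FPKM, Gzmb from 4.62–5.33 FPKM to 15.9–16.0 FPKM and Klrd1 from 0.589–1.15 FPKM to 2.13–3.23 FPKM. Cd2, Cd3d, Cd3e, Cd3g and Cd4 were below the limit of the test, with every cKO_LSK library above every CTRL_LSK library and the highest value at 1.63 FPKM. The part of these shifts in the ribosomal protein values was not tested, and in bulk RNA fewer cells of a type and less RNA per cell cannot be told apart.

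The ribosomal protein genes were among the most abundant rows. In CTRL_LSK, 75 of the 86 averaged above 100 FPKM and 35 above 1000 FPKM, and the median over the 83 tested was 839 FPKM. Most changed little in cKO_LSK. Of 49 tested large subunit genes 13 rose and 1 fell, and of 34 small subunit genes 9 rose and none fell (limma on log2(FPKM + 1), Benjamini-Hochberg adjusted p under 0.05). At an unadjusted p under 0.05, 11 small subunit genes were higher and 0 lower, and voom on reads recovered from the FPKM values also gave 0 lower. With voom 25 large (51.0%) and 25 small (73.5%) subunit genes were higher, against 23.6% of all genes, so how far the members stood from the background depended on the fit. Over all genes tested, 19.9% were called higher and 20.6% lower, beside 26.5% of the tested members higher in either subunit. The share lower was 2.0% of the large and 0.0% of the small subunit. The median log2 fold change was 0.059 for the large and 0.068 for the small subunit, against -0.0096 over all genes tested. Leaving out each library in turn kept these medians between 0.036 and 0.077 for the large and between 0.054 and 0.093 for the small subunit.

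**Figure D1:**
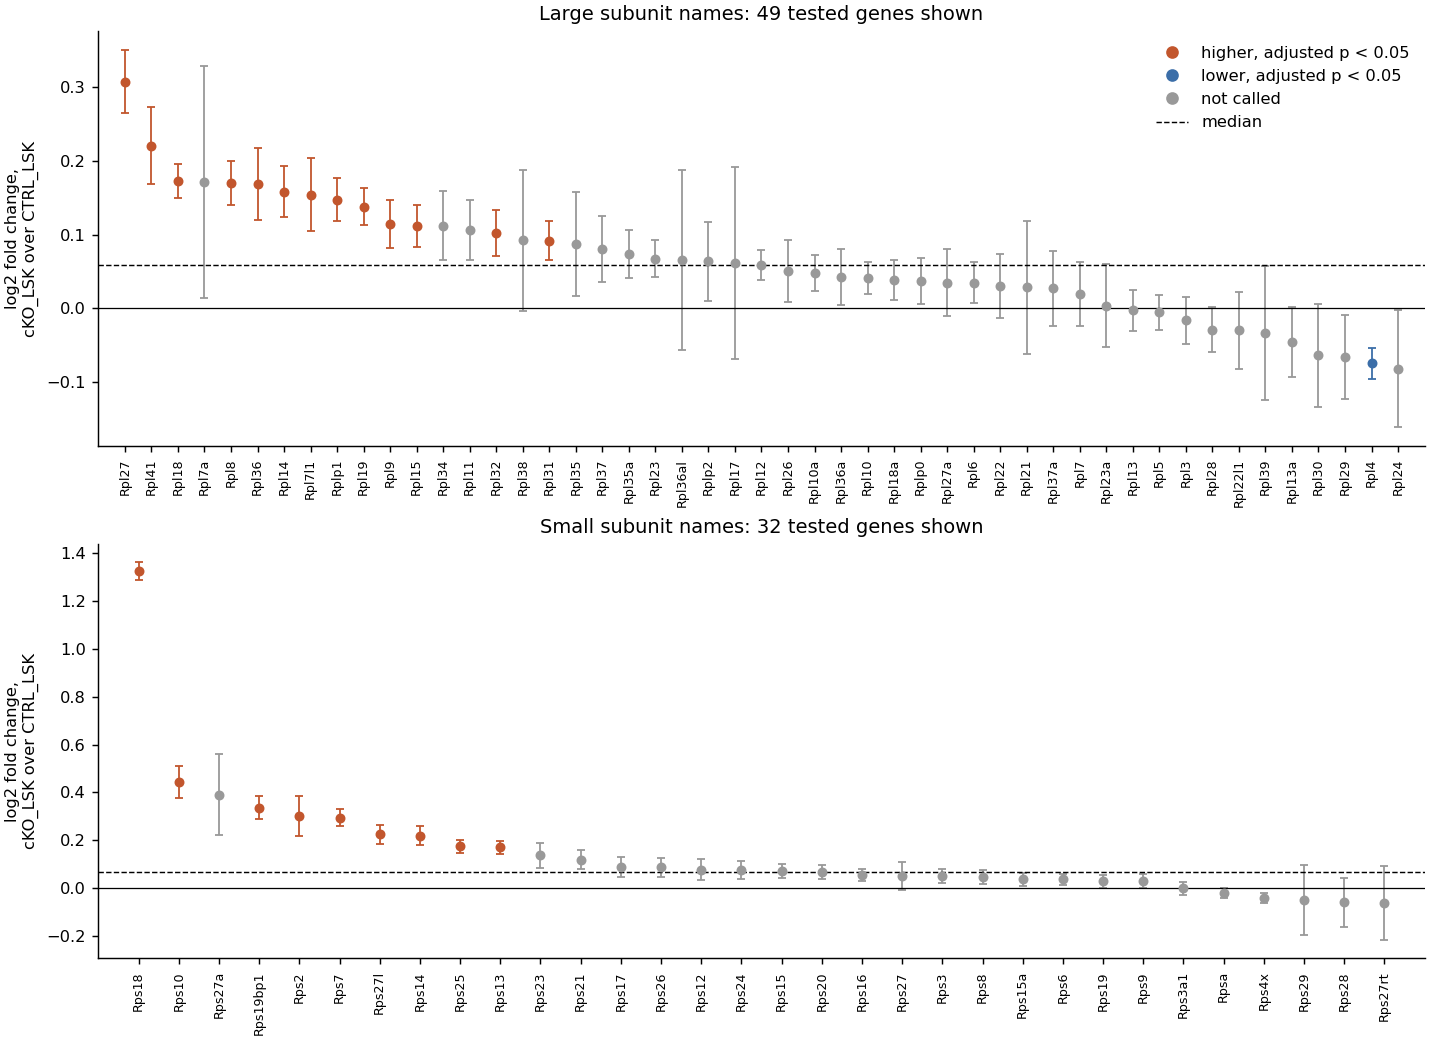
Log2 fold change of cKO_LSK over CTRL_LSK for each tested gene with a large (top) or small (bottom) subunit name, ordered by size; bars are the standard error from limma, the dashed line is the median of all tested genes of the subunit, 2 small subunit genes that were not called are left out, and the vertical scales differ. Most points lie close to the median of their panel, 13 large and 9 small subunit genes are called higher, Rpl4 alone is called lower, and Rps18 stands apart at 1.32.

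Rises were small except for 1 gene. Rps18 was the single member with a change above 2-fold and an unadjusted p under 0.05, a size that 2.13% of all tested genes passed in either direction. Every cKO_LSK library lay above every CTRL_LSK library for 17 large and 13 small subunit genes, 30 of 83, against 25.5% of all genes. Every cKO_LSK library lay below every CTRL_LSK library for 1 gene of each subunit, Rpl4 and Rps4x, against 28.5% of all genes. Within a group the tested members had a median coefficient of variation of 3.03%, so changes of a few percent were at the limit of what 3 libraries can show.

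In the large subunit the called rises ran from 6.59% to 23.7% of the control mean. Rpl27, a Diamond-Blackfan anaemia gene, gave 867, 910.3 and 963 FPKM in CTRL_LSK and 1116, 1108 and 1166 FPKM in cKO_LSK, without overlap (log2 fold change 0.31 ± 0.04 SE, limma adjusted p = 0.00188). Rpl41, the smallest ribosomal protein, gave 2375, 2293 and 2480.0 FPKM against 2903, 2579 and 2853 FPKM (0.22 ± 0.05, limma adjusted p = 0.0155). Its lowest knockout library was 2579 FPKM, closer to the highest control library than to the other two knockout libraries. Rpl18, also a Diamond-Blackfan anaemia gene, was read at 670.0, 678 and 682 FPKM in CTRL_LSK and at 779, 759 and 752 FPKM in cKO_LSK (0.17 ± 0.02, limma adjusted p = 0.0017). Both groups were tight, and the lowest knockout library lay well above the highest control library. Rpl8, which lies beside the catalytic centre of the subunit, gave 2401, 2399 and 2544 FPKM against 2792, 2724 and 2742 FPKM (0.17 ± 0.03, limma adjusted p = 0.00507). Rpl36 gave 3375, 3301 and 3665 FPKM against 4045, 3708 and 3866 FPKM (0.17 ± 0.05, limma adjusted p = 0.0329), and its groups came within a few percent of each other. The other 8 large subunit names that rose, Rpl14, Rpl7l1, Rplp1, Rpl19, Rpl9, Rpl15, Rpl32 and Rpl31, had log2 fold changes of 0.09 to 0.16.

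Rpl4, whose long loop lines the tunnel through which the new chain leaves, was the only member called lower. It was read at 2023, 2041 and 2025 FPKM in CTRL_LSK and at 1953, 1899 and 1932 FPKM in cKO_LSK, so its groups did not overlap, yet the step was -0.07 ± 0.02 (SE, limma adjusted p = 0.0314). The call was lost when any 1 of the 6 libraries was left out. Across the list of proteins at the tunnel and its exit, 2 of 10 rose (Rpl19 and Rpl31) and 1 fell, with a median of 0.056. These counts stood beside 19.9% of all genes tested called higher and 20.6% lower, so the rises were no more frequent than in the background.

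The P stalk, the flexible arm that recruits the translation GTPases, held the most abundant members of all. Rplp1 was the highest ribosomal protein row, with 7371, 7311 and 7738 FPKM in CTRL_LSK and 8404, 8171 and 8250.0 FPKM in cKO_LSK (0.15 ± 0.03, limma adjusted p = 0.00828). Rplp0, the base of the stalk and often used as a reference gene, gave 3946, 3723 and 3986 FPKM against 4029, 3934 and 3990.0 FPKM, with overlap (0.04 ± 0.03, limma adjusted p = 0.39). Rplp2 gave 755, 711 and 806 FPKM against 796, 751 and 825 FPKM, also with overlap (0.06 ± 0.05, limma adjusted p = 0.388). The 3 stalk genes were thus all above 0 in direction, as were 5575 of all 11552 genes tested. Of the 3, 1 passed the test, beside 19.9% of all genes called higher. Rplp1 is short, and with each library's trend with gene length removed, its log2 fold change was 0.016 (limma adjusted p = 0.618).

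Rpl5 and Rpl11 form, with 5S rRNA, the particle that binds Mdm2 and stabilises p53 when ribosome assembly fails. Rpl5 gave 539.9, 531 and 544 FPKM in CTRL_LSK and 546, 527 and 536 FPKM in cKO_LSK (-0.01 ± 0.02, limma adjusted p = 0.873). Rpl11 gave 729, 709 and 774 FPKM against 798, 764 and 816 FPKM (0.11 ± 0.04, limma adjusted p = 0.0794). Neither passed the test, and the groups overlapped for both.

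In the small subunit Rps18, a protein of the head that touches the large subunit across the interface, stood apart from all other members. Its row lies at chr17:33951999-33956001 in mm10, on the minus strand, and was read at 340.4, 337 and 355 FPKM in CTRL_LSK and at 881, 823 and 886 FPKM in cKO_LSK. The groups were far apart, a rise of 151% (log2 fold change 1.32 ± 0.04 SE, limma adjusted p = 3.53e-06). The row overlaps that of Vps52, at chr17:33955812-33966984, which fell by 0.29 on the log2 scale (20.97 to 22.2 FPKM in CTRL_LSK, 17.3 to 17.8 FPKM in cKO_LSK). On its other side B3galt4 rose by 0.24, from 4.33–5.08 FPKM to 5.28–5.75 FPKM.

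Rows with nearly the same sequence as Rps18 moved the other way. Gm11361, a single-exon protein_coding row at chr13:28257528-28258134 that the naming rule does not take in, was read at 733, 735 and 769 FPKM in CTRL_LSK and at 411, 329 and 385 FPKM in cKO_LSK (-0.996 ± 0.08 SE, limma adjusted p = 0.000183). Rps18-ps3, a processed pseudogene on chromosome 8, gave 83.2, 82.0 and 95.1 FPKM against 45.7, 75.5 and 45.4 FPKM (-0.67, limma adjusted p = 0.0312). Over the 456 coding bases of Rps18 the annotated transcripts of Rps18 and Gm11361 differ at 3 positions, T11A, A171C and A337C, counted from 1 at the A of the Rps18 start codon with the Rps18 base first. Rps18-ps3 differs at 3 as well, G181C, A337C and C430T. Shown here are 30 coding bases around the first difference to Gm11361 and around the first to Rps18-ps3, from GENCODE M21, with the differing base in capitals:
Rps18, bases 1 to 30: atgtctctagTgatccctgagaagttccag
Gm11361: atgtctctagAgatccctgagaagttccag
Rps18, bases 155 to 184: tcaccaagagggctggagaactcacgGagg
Rps18-ps3: tcaccaagagggctggagaactcacgCagg

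The longest stretch without a difference is 165 bases between Rps18 and Gm11361 and 180 bases between Rps18 and Rps18-ps3, so how reads from such stretches were shared between the rows depends on settings that the sources used here do not give. Reads recovered from the FPKM values put the Rps18 row at 855 ± 17.8 reads per 1e6 reads on genes (RPM) in CTRL_LSK and 2174 ± 84.3 in cKO_LSK (SD, n = 3 each). With its 5 near copies added, the family went from 1346 ± 29.7 to 2430 ± 99.8 RPM, a rise of 80.6% in place of 154%. On that sum the log2 fold change was 0.85 (voom, adjusted p = 2.48e-17). The rise of Rps18 was therefore smaller, but still the largest among the 83 tested members, once near copies were counted with it.

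**Figure D2:**
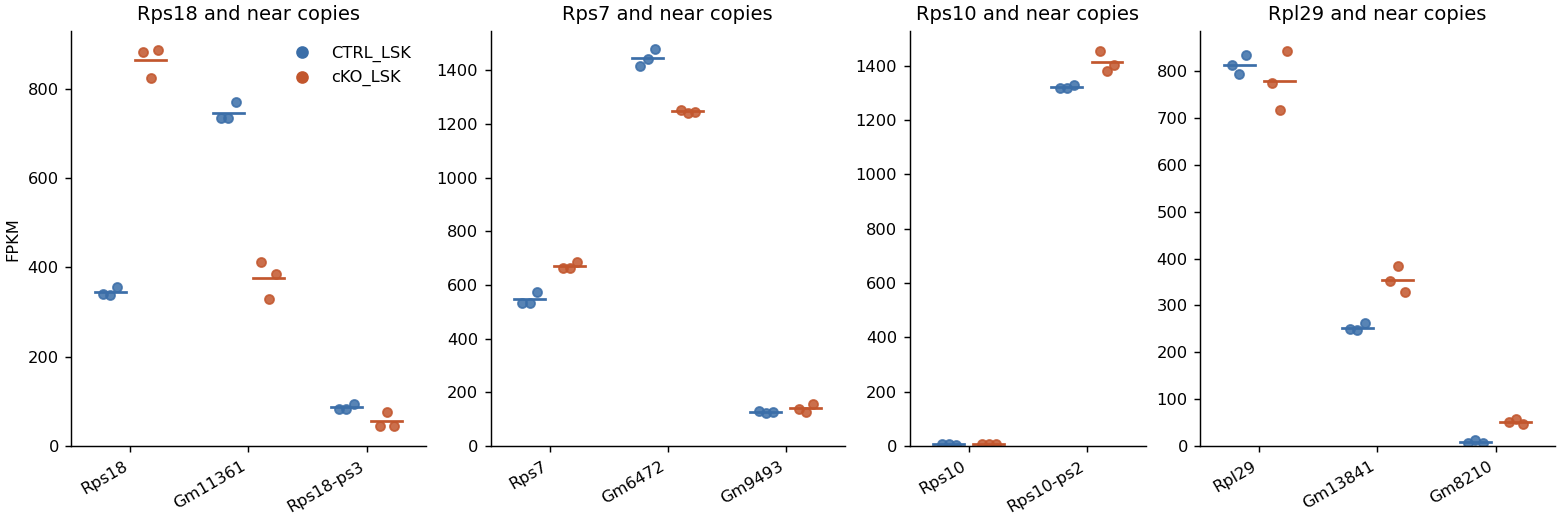
FPKM in each library (points, with the group mean as a line) of Rps18, Rps7, Rps10 and Rpl29 and of rows with at least 95% the same sequence; each panel has its own vertical axis, starting at 0. Rps18 and Rps7 lie higher in cKO_LSK while Gm11361 and Gm6472 lie lower, Rps10 holds only a small share of its family's signal, and Rpl29 overlaps between groups while Gm13841 and Gm8210 lie higher.

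Rps7, Rps10 and Rps2 also shared their signal with near copies. Rps7, a Diamond-Blackfan anaemia gene, gave 535, 532 and 575 FPKM in CTRL_LSK and 664, 664 and 686 FPKM in cKO_LSK (0.29 ± 0.04 SE, limma adjusted p = 0.00115). The pseudogene row Gm6472 on the X chromosome gave 1415, 1443 and 1477 FPKM against 1253, 1242 and 1244 FPKM, and fell (-0.21, limma adjusted p = 0.000752). Over the 582 coding bases the rows differ at 3 positions, T26G, G48A and G123T, with 459 bases in 1 run without a difference. The first 2 are seen in these 30 coding bases, differing bases in capitals:
Rps7, bases 22 to 51: atcgTgaagcccaatggcgagaagccGgac
Gm6472: atcgGgaagcccaatggcgagaagccAgac

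With near copies added, Rps7 rose by 7.53% in RPM in place of 24.3%. Rps10, a head protein at the mRNA entry, was read at only 6.25, 5.62 and 5.48 FPKM in CTRL_LSK and 7.81, 7.90 and 8.98 FPKM in cKO_LSK (0.44 ± 0.07, limma adjusted p = 0.00295). The Rps10 row held 1.95% of its family's reads in CTRL_LSK, the rest lying mostly on Rps10-ps2, which gave 1317 to 1330.0 FPKM and then 1379 to 1454 FPKM. The family as a whole rose by 9.23%. Rps2, which lies where the mRNA enters, was likewise low, at 37.3, 34.1 and 36.8 FPKM against 40.1, 50.7 and 44.1 FPKM (0.30 ± 0.08, limma adjusted p = 0.0274). It held 2.05% of the reads of a family of 28 near copies, and that family rose by 11.97%, from 3163, 3169 and 3299 RPM to 3396, 4024 and 3364 RPM. Most of that rise came from cKO_LSK2, without which it was 5.29%. The fold changes of Rps10 and Rps2 alone thus describe a small part of the reads of either family.

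The other called small subunit genes held at least 97.3% of their family's reads in both groups. Rps14, a platform protein and the gene of the 5q- syndrome, gave 1937, 1907 and 2110.0 FPKM in CTRL_LSK and 2317, 2300.0 and 2309 FPKM in cKO_LSK (0.22 ± 0.04, limma adjusted p = 0.00571). Rps27l, a paralog of Rps27 that p53 can induce, gave 243, 237 and 247 FPKM against 289.5, 268 and 294 FPKM (0.23 ± 0.04, limma adjusted p = 0.00529). Rps25 and Rps13 rose by 0.18 and 0.17, and for each of these 4 genes the groups did not overlap. Rps19bp1, no ribosomal protein itself, gave 46.1, 46.6 and 46.0 FPKM against 61.8, 59.8 and 54.6 FPKM (0.34 ± 0.05, limma adjusted p = 0.00186).

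**Figure D3:**
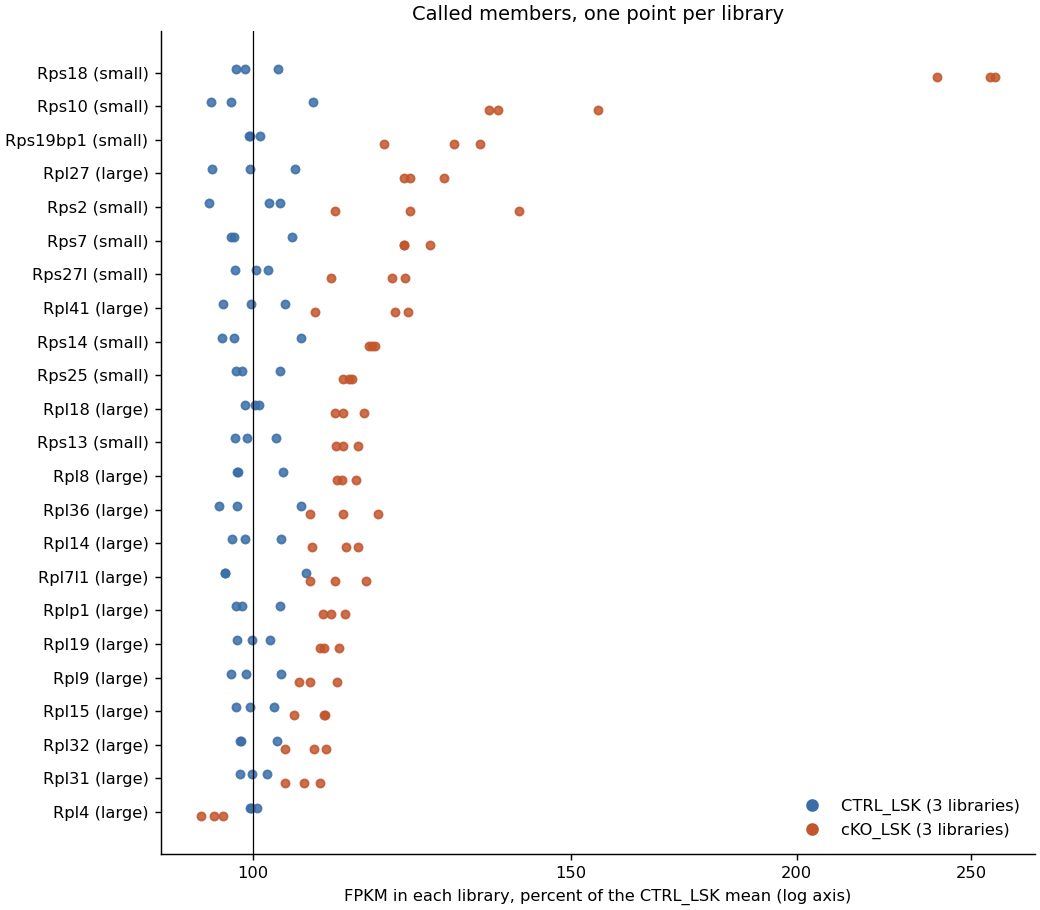
FPKM of each called member in each library as a percentage of its CTRL_LSK mean, on a log axis, with 3 CTRL_LSK (blue) and 3 cKO_LSK (orange) points per gene. The groups do not overlap for any of the 23 genes shown; Rps18 lies near 250% in cKO_LSK, the other 21 rises lie below 160%, and Rpl4 lies below 100%.

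The most abundant small subunit genes did not pass the test. Rps15, a head protein, gave 3526, 3489 and 3669 FPKM in CTRL_LSK and 3826, 3651 and 3744 FPKM in cKO_LSK (0.07 ± 0.03, limma adjusted p = 0.103). Rps3a1, at the mRNA exit, gave 3221, 3194 and 3350.0 FPKM against 3252, 3191 and 3317 FPKM (0.00 ± 0.03, limma adjusted p = 0.989). Rps6, the substrate of the S6 kinases, gave 2224, 2219 and 2246 FPKM against 2269, 2330.0 and 2261 FPKM (0.04 ± 0.02, limma adjusted p = 0.235). Its groups did not overlap, yet it did not pass the test. Rps19, the gene most often mutated in Diamond-Blackfan anaemia, gave 616, 610.2 and 646 FPKM against 639, 638 and 632 FPKM (0.03 ± 0.03, limma adjusted p = 0.44). Rps27a, which is made as a fusion with ubiquitin, had the third largest log2 fold change of the small subunit, 0.39 ± 0.17 (limma adjusted p = 0.107). It was chosen for mention after its values were seen, since its libraries spread widely, at 734, 533 and 866 FPKM in CTRL_LSK and 934, 838 and 977 FPKM in cKO_LSK.

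By role, called genes were spread over the ribosome. In the list of 40S head proteins 3 of 14 rose (Rps10, Rps18 and Rps25), with a median log2 fold change of 0.068. In the list of platform and mRNA exit proteins 2 of 8 rose (Rps2 and Rps14), with the same median, although Rps2 itself lies at the mRNA entry. Of 19 Diamond-Blackfan anaemia genes 6 rose (Rpl15, Rpl18, Rpl27, Rpl31, Rps7 and Rps10) and 0 fell at adjusted or unadjusted p under 0.05, with a median of 0.086. These lists overlap, and their shares of 21.4%, 25.0% and 31.6% stood beside 19.9% of all genes.

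Among paralog pairs the main ribosomal copy and its relative could be compared in level, since FPKM is per length. Rpl22, whose loss blocks T cell development, gave 318, 312 and 329 FPKM in CTRL_LSK and 336, 307 and 337 FPKM in cKO_LSK, while Rpl22l1 gave 79.1 to 90.1 FPKM over the 6 libraries, and neither passed the test. Rps27 (562 to 654 FPKM over the 6 libraries) was higher than Rps27l, and only Rps27l was called; the difference between their changes was not tested. Rpl36a was read at 548 to 595 FPKM and Rpl36al at 5.37 to 7.39 FPKM, Rpl39 at 506 to 647 FPKM, Rpl3 at 521 to 562 FPKM and Rpl10 at 1204 to 1272 FPKM. Rps4x gave 1838, 1852 and 1900.0 FPKM in CTRL_LSK and 1818, 1803 and 1812 FPKM in cKO_LSK, without overlap (-0.04 ± 0.02, limma adjusted p = 0.187), and its pseudogene relative Rps4l rose from 6.50–9.34 to 10.1–12.2 FPKM. The 3 members below the limit of the test were Rpl10l, at 0 in all 6 libraries, Rpl39l, at 0.0605 to 0.194 FPKM or 1 to 3 reads, and Rpl3l, the paralog of heart and skeletal muscle, at 0.222 to 0.835 FPKM.

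Near copies were common to the whole family. A search of annotated transcripts found 628 rows at least 95% the same as 1 of 81 members, and 5 members had none. Of 245 such rows tested, 18 rose (7.3%) and 6 fell (2.4%), beside 19.9% and 20.6% of all genes. For 25 members at least 99% of the family's reads in CTRL_LSK lay on the member's own row, whereas for 4 members (Rps10, Rps2, Rpl24 and Rpl21) more than 50% lay elsewhere. Rpl24 shows the extreme of a low row in the large subunit, at 2.33 to 2.69 FPKM in CTRL_LSK and 2.02 to 2.50 FPKM in cKO_LSK, with 12.5% of its family's reads. With the reads of near copies added, all 22 called rises were still called higher with voom, as were 30 large and 25 small subunit genes in all (background 24.2%).

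The change also ran with gene length. Over all other genes tested, the median log2 fold change was 0.13 for rows of up to 500 bases, 0.045 for 2001 to 3000 bases and -0.08 for rows above 6000 bases. The ribosomal protein genes are short, with a median length of 1739 bases against 3693 bases over all genes tested. Their own medians stayed between 0.032 and 0.15 in every length class, and across the 83 members the log2 fold change and log2 length had a Pearson r of 0.028 and a Spearman rho of -0.065, given as a description, since genes of 1 library are not independent. When each library's trend with length was removed, the median fell to 0.0059 for the large and 0.015 for the small subunit, with 46 members above 0 and 37 below. Of the 22 called rises 9 were then lost: Rpl41 (0.13, limma adjusted p = 0.0747), Rpl36 (0.02, limma adjusted p = 0.649), Rplp1, Rpl14, Rpl19, Rpl15, Rpl32, Rpl31 and Rps2. The other 13 remained, among them Rps18, Rps10, Rpl27, Rps7, Rpl18, Rps25, Rps13 and Rps14, and 2 large subunit genes (Rpl4 and Rpl28) and 4 small subunit genes, among them Rps3a1 and Rps4x, were called lower (background with that setting 19.2% higher and 18.2% lower). Whether the length trend is a property of these libraries or of the cells was not tested.

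**Figure D4:**
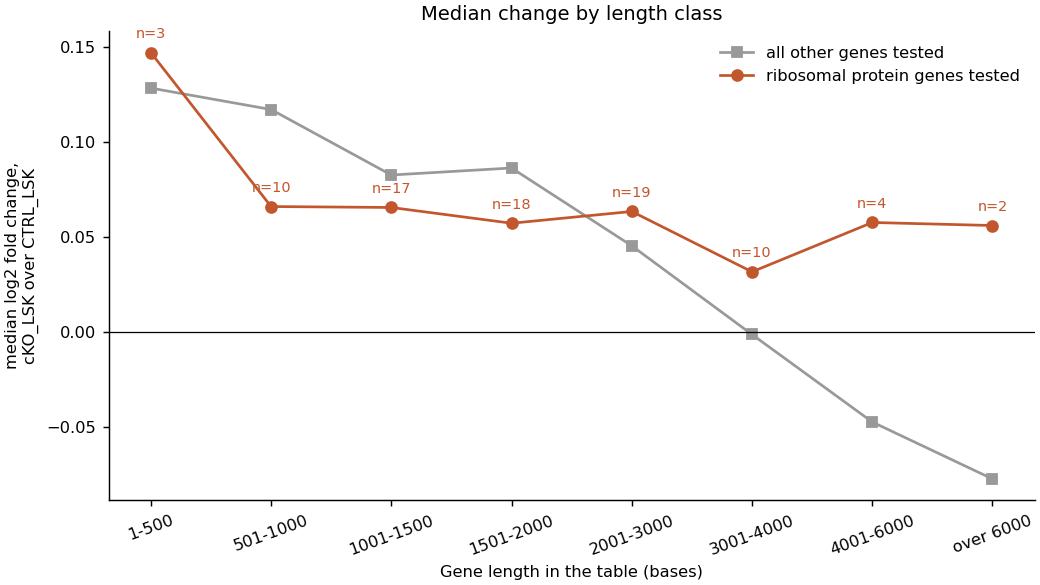
Median log2 fold change of cKO_LSK over CTRL_LSK by gene length class in bases, for all other genes tested (grey squares) and for the ribosomal protein genes (orange circles, with their number). The grey line falls from 0.13 to -0.08 with length, while the orange points lie between 0.032 and 0.15.

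Summed over all members, the shares of all FPKM moved little. Large subunit names took 13.3%, 13.2% and 13.7% of the summed FPKM in CTRL_LSK and 14.1%, 13.8% and 14.2% in cKO_LSK, or 13.4% ± 0.25 and 14.0% ± 0.25 (SD, n = 3 each). Small subunit names took 8.98% ± 0.13 and 9.38% ± 0.18. The groups did not overlap in either share, but the highest control library and the lowest knockout library were close, at 13.68% and 13.76% for the large and at 9.13% and 9.16% for the small subunit. Without Rps18 the small subunit shares were 8.90% ± 0.13 and 9.17% ± 0.18, and the groups overlapped. The ratio of large to small subunit FPKM was 1.491 ± 0.0063 in CTRL_LSK and 1.497 ± 0.0066 in cKO_LSK, with overlap. In FPKM the large share rose by 4.82% of its control mean and the small share by 4.44%, or by 3.13% without Rps18. In recovered reads the rises were 6.40% for the large and 8.14% for the small subunit. Which share rose more thus depended on the measure, and a shift between the subunits was not tested.

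**Figure D5:**
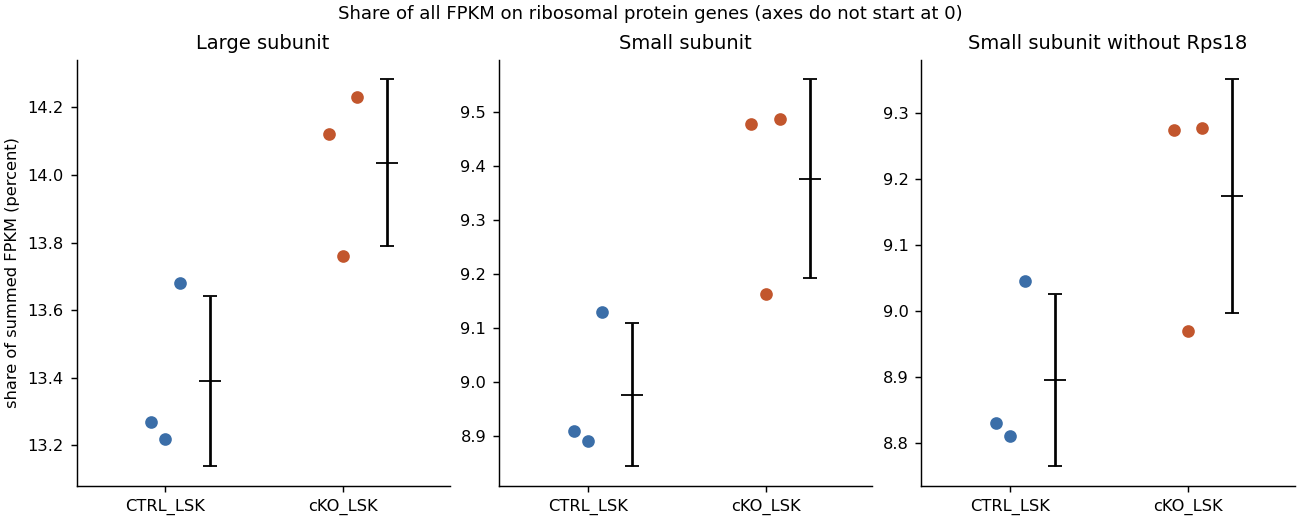
Share of each library's summed FPKM (percent) on large subunit genes, on small subunit genes and on small subunit genes without Rps18, with 1 point per library and the mean ± SD beside it; the axes do not start at 0. The cKO_LSK points lie above the CTRL_LSK points in the first 2 panels and overlap with them in the third.

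Within a group, many members ranked the libraries alike. Of the 3 control libraries, CTRL_LSK3 held the highest value for 42 of 49 large and 28 of 34 small subunit genes, and CTRL_LSK2 the lowest for 36 and 22. Among the knockout libraries cKO_LSK2 held the lowest value for 31 large and 23 small subunit genes. Summed FPKM of all rows was also highest in CTRL_LSK3 (426700) and lowest in CTRL_LSK2 (417000) among controls, and lowest in cKO_LSK2 (423900) among knockouts. These counts were not made over all genes, so the ranking is not shown to be particular to the members. Without CTRL_LSK3, 15 large and 12 small subunit genes were called higher, and the same numbers without cKO_LSK2. The large subunit count was 7 without CTRL_LSK1, 6 without CTRL_LSK2, 6 without cKO_LSK1 and 7 without cKO_LSK3. The share of all genes called in these fits was not counted. The spread could be wide in single genes, as in Rps29, a small protein of the head, with 1267, 847 and 1204 FPKM in cKO_LSK.

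Ribosomal proteins that the naming rule does not reach were read as well. Fau, a fusion with Rps30, gave 2143, 2146 and 2249 FPKM against 2367, 2323 and 2270.0 FPKM (0.09 ± 0.03, limma adjusted p = 0.0465), and turned to -0.02 once the length trend was removed. Rack1, the scaffold on the 40S head, gave 681 to 692 FPKM against 669 to 708 FPKM (0.01 ± 0.03, limma adjusted p = 0.894).

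Genes listed as translation factors moved in both directions. Of 39 initiation factor genes 19 rose (48.7%) and 4 fell (10.3%), beside 19.9% and 20.6% of all genes, with a median log2 fold change of 0.10. The largest rises were Eif2b3 (0.37) and Eif2b1 (0.35), subunits of the factor that recharges eIF2 with GTP, and Eif2s2 (0.31), the beta subunit of eIF2. The largest falls were Pabpc1, the cytoplasmic poly(A) binding protein, Eif4g3, a scaffold of the cap complex (-0.28), and Eif3f (-0.13). Pabpc1 was read at 243, 245 and 240.4 FPKM in CTRL_LSK and at 178, 179 and 179.5 FPKM in cKO_LSK, a wide gap with almost no spread (-0.44 ± 0.02, limma adjusted p = 2.4e-05). Of 10 genes on the list of elongation and release factors 7 rose (70.0%), led by Eef1e1 (0.41), Eef1d (0.21) and Eif5a (0.20), and 2 fell. The 2 were the most abundant of the list. Eef1a1, which brings aminoacyl-tRNA to the ribosome, gave 5719, 5719 and 5726 FPKM against 5043, 5064 and 5004 FPKM (-0.18 ± 0.02, limma adjusted p = 0.000697). Eef2, the translocase, gave 1565, 1542 and 1565 FPKM against 1350.0, 1380.0 and 1344 FPKM (-0.20 ± 0.02, limma adjusted p = 0.000727).

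Eef1a1, Eef2 and Pabpc1 are known TOP mRNAs, as the ribosomal protein mRNAs are. Of the 20 other TOP mRNA genes examined 8 rose, among them Eef1d and Btf3 (0.17), and 6 fell, Tpt1 and Eif4b beside those named above, with a median of 0.054 and a background of 19.9% higher and 20.6% lower. The start of transcription was looked up in RefSeq (GRCm38.p6), which gave 78 starts for 66 of the 86 members. A C followed by at least 5 further pyrimidines (C or T), beginning within 5 bases of the annotated start on the sense strand, was found for 40.9% of these 66 genes and for 11.9% of all 27025 genes listed. It is shown for 1 member that rose, 1 that did not pass the test and 1 TOP mRNA that fell, with 10 bases before the annotated start and 20 from it on, with the C and the pyrimidines after it in capitals. Other pyrimidines can precede that C. A marked run need not be the TOP tract of the mRNA, since the annotated start was not checked against where the mRNA begins. Rps18 is on the minus strand at chr17:33955646-33955675, Rps6 on the minus strand at chr4:86857348-86857377 and Eef1a1 on the minus strand at chr9:78481705-78481734:
Rps18: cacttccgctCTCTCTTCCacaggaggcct
Rps6: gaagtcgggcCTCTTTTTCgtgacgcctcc
Eef1a1: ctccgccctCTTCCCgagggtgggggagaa

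Both kinds of member included genes that rose. Of 27 tested members with it 7 rose (25.9%), with a median log2 fold change of 0.086, and of 36 tested members without it 10 rose (27.8%), with a median of 0.050, beside 19.9% of all genes. A run, or a missing run, says only whether these letters are in the window of the annotated start.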

How the data were processed

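RNA was taken from sorted LSK cells with TRIzol and made into libraries with an Illumina TruSeq kit. The submitters' processing notes name HISAT2 2.0.5 and mm10, and the authors deposited 1 table of FPKM per gene for 6 libraries. The counting program, its strand setting and its treatment of reads that map to several places are not given in the sources used here. FPKM times length gave whole reads for 100.0% of values (within 0.05), which set the depth of 17571544 to 19894562 reads per library.

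log2(FPKM + 1) was fitted with limma 3.58.1 (R 4.3.3, trend moderation, 2 groups, no covariate) over 11552 genes with a mean FPKM of at least 1, with Benjamini-Hochberg adjustment over all of them and a call at an adjusted p under 0.05. Fold changes of low genes are understated on this scale. For 1 gene alone, 3 against 3 libraries cannot reach an exact two-sided permutation p below 0.1, so single rows rest on limma's pooled spread. Near copies were found with blastn 2.17.0 between GENCODE M21 transcripts (at least 95% identity over 80% of the copy's transcript and 40% of its row length). Only the main limma fit was tested on simulated reads. The planted changes were larger than those of most called members, and the simulation had no length trend and no near copies.

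The members, the role lists and the rule for named genes were chosen with earlier results of these data known. Named were the 5 largest called changes in each direction and the 3 most abundant genes of each subunit, the P stalk, 5S RNP and paralog lists, Rps19, Rps14, the ribosomal proteins outside the naming rule, up to 3 changed genes a direction of each translation list, and all members under the limit. Alternatives were other scalings, pseudocounts, filters and moderation, a replicate block, length and GC trends, voom on recovered reads with and without near copies, and each library left out. The replicate numbers were checked and did not pair the libraries. Some named genes are not reported here.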

Additional observations from a re-analysis of the deposited data

How the results depend on the processing

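Rps18 and the direction of both subunit medians were kept in every setting tried, except that the large subunit median came to 0.0 under quantile normalization. Large subunit genes called higher, 13 as reported, numbered 2 without a filter on low values, 7 under quantile normalization, 7 with moderation without trend, 6 with the length trend removed, 5 with length and GC trends removed, 25 with voom, 27 with voom and -ps rows added, and 30 with voom and near copies added, an alternative chosen after seeing the data. Leaving out 1 library gave 6 to 15. Of all genes, 19.9% were called higher as reported and 19.2% with the length trend or both trends removed. With voom 23.6% were, and 24.2% with near copies added. Shares called lower were 20.6% as reported, 18.2% and 18.1% with the length trend or both trends removed, and 22.0% and 22.9% with voom without and with near copies. For the other settings the share of all genes was not counted, so a general change in calls cannot be told apart there. Small subunit genes called higher, 9 as reported, numbered 15 under quantile normalization and 25 in each of the 3 voom settings, and 8 to 12 with 1 library left out. Large subunit genes called lower, 1 as reported, numbered 0 without the filter, with moderation without trend, with the replicate block and in every leave-one-out fit, and 2 under quantile normalization and with the length trend or both trends removed. Small subunit genes called lower, 0 as reported, numbered 1 on TPM and 4 with the length trend or both trends removed. With those trends removed the medians were 0.0059 and 0.0011 for the large and 0.0148 and 0.0127 for the small subunit. A limit of more than 2-fold with an unadjusted p under 0.05 left 0 of 14 large and 1 of 9 small subunit calls. The shares of summed FPKM kept their direction, with a difference of 0.548 to 0.791 percentage points (large) and 0.344 to 0.505 (small) when 1 library was left out. Fau turned to -0.0182 and -0.0213 with the length trend or both trends removed. The cause of these differences was not tested beyond the construction of each setting.

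Libraries with the same number did not deviate together (correlations of -0.005, -0.011 and -0.026), so the replicate block pairs nothing but the number. With it, 13 large and 10 small subunit genes were called higher. Of 1312 values for 66 single genes, 1157 kept direction and call, 28 gained a call, 125 lost one and 2 turned. The planned fits of count models to recovered reads with edgeR and DESeq2 were not run, since FPKM was deposited and not counts, and the sum with -ps rows was fitted with voom in their place. With 17571544 to 19894562 reads, abundance sets few limits here beyond rows under 1 FPKM.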

Other observations

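Regulators of TOP mRNA translation and of S6 phosphorylation were read beside the ribosomal protein genes. Eif4ebp1, which holds eIF4E away from the cap, rose from 49.5–53.6 FPKM to 58.1–62.2 FPKM (log2 fold change 0.23 ± 0.04 SE, limma adjusted p = 0.0053). Its relative Eif4ebp2 fell from 30.8–31.3 FPKM to 24.1–25.6 FPKM (-0.30 ± 0.03, limma adjusted p = 0.000744). Larp1, which binds TOP mRNAs, fell from 26.0–26.9 FPKM to 23.3–24.4 FPKM (-0.15 ± 0.03, limma adjusted p = 0.00983), and Eef2k, the kinase of eEF2, fell from 22.9–24.1 FPKM to 19.7–21.04 FPKM (-0.20 ± 0.04, limma adjusted p = 0.0068). The S6 kinase genes Rps6kb1 and Rps6kb2 were read at 5.48–6.59 FPKM and 10.2–12.2 FPKM and did not pass the test.

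Near copies of Rpl29, Rpl30 and Rps26 were chosen for mention after their values were seen. Rpl29 gave 813, 795 and 835 FPKM in CTRL_LSK and 776, 718 and 843 FPKM in cKO_LSK, with overlap. Its processed pseudogene rows Gm8210, on chromosome 1, went from 6.66, 13.4 and 7.44 FPKM to 50.7, 58.0 and 47.3 FPKM (2.44 ± 0.23 SE, limma adjusted p = 0.000386), and Gm13841, on chromosome 5, from 247–262 FPKM to 328–385 FPKM (0.49, limma adjusted p = 0.00103). Both rows differ from the Rpl29 coding sequence at the same 3 positions, C72A, C300T and T423C, counted from the A of its start codon. Rps26-ps1, on chromosome 8, fell from 33.7–50.6 FPKM to 23.9–32.1 FPKM (-0.59, limma adjusted p = 0.0284). A pair of Rpl30 rows, Rpl30-ps10 and Gm12191, spread so widely within groups (29.6 to 204 FPKM and 78.6 to 272 FPKM) that no difference could be read from them.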
